A study of Mus musculus with 16 samples.

Results

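Exercised VV mice and sedentary VV mice were compared in quadriceps muscle, 4 mice against 4 of the 16 mice in the series. In VV mice both copies of Camk2g were altered by knock-in. This is the gene of the gamma isoform of calcium/calmodulin-dependent protein kinase II (CaMKII), with valines here in place of neighbouring methionines (M281V and M282V), and MM mice are their wild-type littermates. Exercise was 1 run of 350 m up an incline with muscle taken 3 h afterwards, which the sedentary VV mice did not do. All mice were male C57BL/6J aged 13 to 15 weeks, and the MM groups (4 exercised, 4 sedentary) enter the expression filter, the estimate of the spread and the test of where VV differs. The allele is a knock-in at the gene itself, so it is not confined to muscle. Whole muscle was read, and a lower level of a gene in such bulk RNA cannot be told apart from fewer cells that express it. Members of the comparison were the 10519 of 18872 gene entries with a mean of at least 1 FPKM (fragments scaled to transcript length and to library size) over the 16 mice.

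CaMKII is a kinase that calcium and calmodulin switch on during contraction. Oxidation of the methionine pair next to its calmodulin-binding segment can keep it active after calcium falls, and valines at these positions cannot be oxidized in this way. In muscle the kinase is known for phosphorylating proteins of calcium release and for relieving the repression of muscle genes by class II histone deacetylases. After a run, muscle transiently transcribes stress-induced transcription factors, chaperones, sarcomere proteins and the coactivator of mitochondrial genes.

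The libraries of the VV mice were of similar size. FPKM summed to between 486307 and 505192 in exercised VV and to between 482254 and 508841 in sedentary VV mice. Relative depth, taken from the steps of low FPKM values and set to 1 in the shallowest mouse of the series, lay between 1 and 1.23 in exercised VV and between 1.05 and 1.18 in sedentary VV mice. The shallowest was the exercised VV mouse 2161-7. Mice carry the numbers of their titles, whose first 4 digits are called the prefix here, and no source used here explains it. All 16 skeletal muscle fibre markers were tested and their summed level was 124881 to 139586 FPKM in exercised VV and 119209 to 139778 FPKM in sedentary VV mice.

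In exercised VV muscle 27 genes rose and 2 fell. They were led by the transcription factor genes Nr4a3 and Atf3, the inducible HSP70 genes Hspa1b and Hspa1a, the coactivator gene Ppargc1a and the sarcomere repair gene Xirp1. Log2 fold changes, from log2(FPKM + 0.1) and therefore too small for genes of low level, lay between 0.45 and 4.73 for the genes that rose, with a median of 1.24, and were -0.66 and -0.98 for the genes that fell. The calls come from a limma fit of 4 group means with Benjamini-Hochberg adjustment over all tested genes and a threshold of 0.05. Higher calls made up 0.257% of the tested genes and lower calls 0.019%. These shares are the background for each count of calls in a gene list below. At such shares a list without a call is the usual case, and the lists were chosen with earlier results of these data known. In all 29 genes the 4 exercised VV mice lay on the same side of the 4 sedentary VV mice.

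Below the called genes the shift of the whole distribution was downward. The median log2 fold change over the tested genes was -0.08, and 73.6% of them had values below 0 in VV. With 4 mice against 4, some genes lack overlap by chance alone, so here and below a lack of overlap is a description and not a test. Without overlap between the 4 exercised and the 4 sedentary VV mice, 147 genes were higher in exercised mice (1.4% of the tested genes) and 370 were lower (3.52%). This imbalance followed the scaling of the libraries. After median-ratio scaling the median was -0.00 and 253 genes were higher against 181 lower, and after quantile normalization 241 were higher against 219 lower. The calls themselves stayed on the higher side, with 52 higher and 1 lower under median-ratio scaling and 47 higher and 1 lower under quantile normalization. Of the 29 genes, 28 passed under each of these scalings.

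Of the 29 genes, 16 passed without any single one of the 16 mice: Nr4a3, Atf3, Ppargc1a, Xirp1, Tnfrsf12a, Srxn1, Arhgap26, Maff, Mustn1, Slc22a4, Ifrd1, Midn, Gda, Hspb7, Rbm20 and Alpk2. The total fell to 17 calls without the exercised mouse 2161-5 and to 18 without the sedentary mouse 2126-4, and it was 42 without the exercised mouse 2296-2 and 43 without the sedentary mouse 2296-5. When the spread was taken from the 8 VV mice alone, 5 genes passed: Atf3, Ppargc1a, Arhgap26, Maff and Rbm20. The title prefix 2296 is the only one found in both VV groups. With the prefix as a term in the model, the VV effect rested on the exercised mice 2296-2 and 2296-3 against the sedentary mouse 2296-5, and the 29 calls were lost. In these 3 mice the 27 genes that rose had a median log2 difference of 0.87. Both exercised values lay above the sedentary one in each of them. That follows from the lack of overlap in all 29 genes and is no further support.

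**Figure D1:**
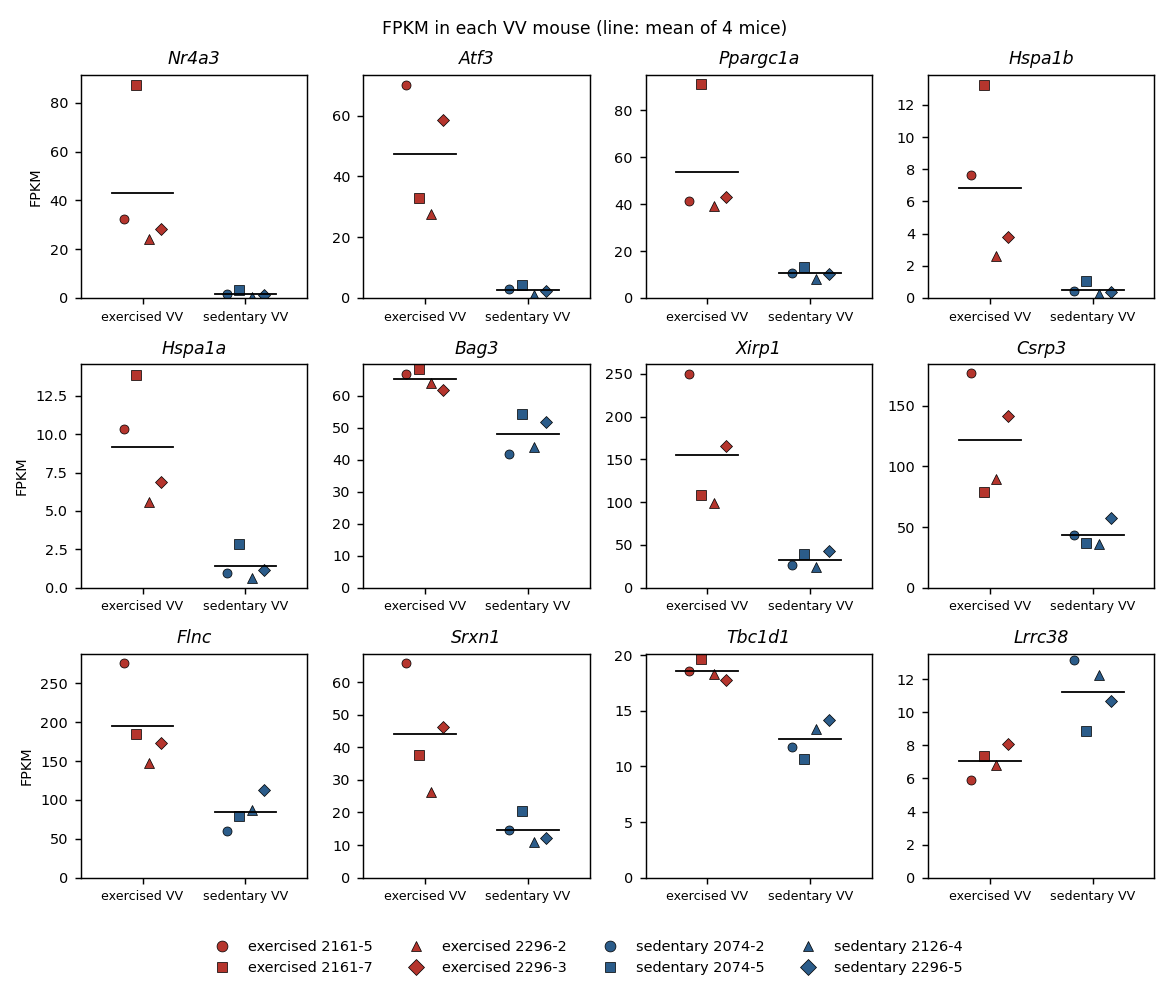
FPKM of 12 genes in each of the 4 exercised VV mice (left, red) and the 4 sedentary VV mice (right, blue), with a marker shape for each mouse and a line at the mean of 4 mice; each vertical axis starts at 0. The groups do not overlap in any of the 12 genes, and the exercised mouse 2161-7 stands apart for Nr4a3 at 87.3 FPKM and for Ppargc1a at 91 FPKM.

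The highest fold changes in VV muscle were those of the transcription factor genes Nr4a3 and Atf3. Nr4a3, an orphan nuclear receptor induced by contraction, had 32.2, 87.3, 24.4 and 28.3 FPKM in the exercised VV mice 2161-5, 2161-7, 2296-2 and 2296-3, against 1.47, 3.20, 0.400 and 1.42 FPKM in the sedentary VV mice 2074-2, 2074-5, 2126-4 and 2296-5. The groups lay far apart, and 1 exercised mouse was well above the other 3. The log2 fold change was 4.73 (SE 0.65, adjusted p = 0.0044 from limma), 26.6-fold on that scale. Atf3, a factor of the ATF/CREB family induced by many stresses, had 70.0, 32.7, 27.6 and 58.4 FPKM in these exercised mice in the same order and 3.03, 4.15, 0.955 and 2.22 FPKM in the sedentary mice (log2 fold change 4.20, SE 0.41, adjusted p = 0.00030). Its highest exercised mouse was 2161-5, against 2161-7 for Nr4a3, and 2296-2 was lowest for both genes.

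The small Maf factors, which pair with NRF2 or with BACH1 at antioxidant response elements, rose less. Maff had 5.25, 6.08, 4.68 and 4.59 FPKM in exercised VV mice against 1.98, 2.26, 1.44 and 2.51 FPKM in sedentary VV mice (log2 fold change 1.31, SE 0.22, adjusted p = 0.0099 from limma). Mafk had 16.6, 22.5, 11.1 and 11.2 FPKM against 5.98, 6.61, 6.25 and 7.87 FPKM, a log2 fold change of 1.13 (adjusted p = 0.034). Bach1, the repressor that binds with small Mafs, also rose, with 12.6, 16.1, 10.5 and 10.8 FPKM in exercised and 7.82, 8.58, 6.35 and 7.33 FPKM in sedentary VV mice (0.71, adjusted p = 0.024). All 3 genes were higher in every exercised VV mouse than in any sedentary one. Mafk did not pass without 2127-1, 2127-3, 2074-2, 2074-5, 2126-4, 2161-5 or 2161-7 (adjusted p from 0.0521 to 0.155), and Bach1 did not pass without 2074-2, 2126-4, 2296-5, 2161-5 or 2161-7 (0.053 to 0.134).

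Of 33 immediate early transcription factors listed, 27 were tested. Of these, 4 rose (Atf3, Nr4a3, Maff and Mafk) and 0 fell, where 0.257% of all tested genes rose. In the list 24 of 27 values were above 0, with a median log2 fold change of 0.52 against -0.08 over all tested genes. Without mouse 2161-7 the median of the list was 0.30. Jun, a part of the AP-1 factor, had 33.9, 31.2, 18.3 and 24.4 FPKM in exercised and 13.5, 15.8, 15.8 and 17.0 FPKM in sedentary VV mice, and did not pass (log2 fold change 0.76, adjusted p = 0.069). Btg2, which restrains cell division, had 25.8, 23.7, 6.99 and 14.9 FPKM against 7.13, 9.25, 5.05 and 8.19 FPKM (1.13, adjusted p = 0.26). For Btg2 the mouse 2296-2 lay within the sedentary range. Csrnp1, a nuclear protein induced by AXIN1 in human cells, had 5.25, 2.58, 1.24 and 1.90 FPKM in exercised mice and 0.789 to 1.19 FPKM in sedentary mice (1.25, adjusted p = 0.28).

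Ppargc1a encodes PGC-1alpha, the coactivator of mitochondrial biogenesis, whose muscle promoter is known to answer CREB and MEF2. It had 41.2, 91, 39.3 and 43.1 FPKM in exercised VV mice and 10.4, 13.3, 8.03 and 10.4 FPKM in sedentary VV mice, a log2 fold change of 2.27 (SE 0.29, adjusted p = 0.0021 from limma). The other 3 exercised mice lay close together and 2161-7 was far above them. Without 2161-7 the call remained. Of 14 tested PGC-1 coactivators and partners, Ppargc1a alone rose and 0 fell, with 4 of 14 values above 0 and a median of -0.11. Its relative Ppargc1b had 1.21, 3.28, 1.33 and 1.41 FPKM in exercised and 3.68, 1.43, 3.64 and 2.00 FPKM in sedentary mice (-0.56, adjusted p = 0.62). Tfam, the mitochondrial transcription factor, had a log2 fold change of -0.16 (adjusted p = 0.65). Of 38 nuclear-encoded respiratory chain genes none passed in limma's fit, and their median was -0.06.

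Promoter sequence is shown for 4 of the 6 called transcription regulators whose window holds the short CREB/ATF motif TGACG, those with the highest fold changes, since all were higher in every exercised VV mouse. Mafk and Ifrd1 also hold the motif and are not shown. RefSeq windows of the 250 bases before a transcription start (GRCm38.p6) were found for 24 of the 29 genes, in 33 windows because some genes have several starts. Xirp1, Rbm20, Arhgap26, Alpk2 and LOC100861855 had no window. The windows shown are Nr4a3 from chr4:48045055-48045304 on the plus strand, Atf3 from chr1:191183334-191183583 on the minus strand, Ppargc1a from chr5:51567726-51567975 on the minus strand and Maff from chr15:79347270-79347519 on the plus strand. Each line reads 5′ to 3′ in the direction of the gene, and capitals mark TGACG on either strand.
Nr4a3: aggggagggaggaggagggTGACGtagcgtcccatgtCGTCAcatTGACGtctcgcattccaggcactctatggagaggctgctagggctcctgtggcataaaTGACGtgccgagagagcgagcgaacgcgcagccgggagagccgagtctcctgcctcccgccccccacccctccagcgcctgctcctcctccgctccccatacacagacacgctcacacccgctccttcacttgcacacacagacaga
Atf3: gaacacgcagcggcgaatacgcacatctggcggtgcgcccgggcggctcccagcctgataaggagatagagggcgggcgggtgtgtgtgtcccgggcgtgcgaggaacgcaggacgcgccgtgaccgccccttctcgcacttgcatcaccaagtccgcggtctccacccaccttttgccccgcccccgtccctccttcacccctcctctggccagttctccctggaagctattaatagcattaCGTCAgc
Ppargc1a: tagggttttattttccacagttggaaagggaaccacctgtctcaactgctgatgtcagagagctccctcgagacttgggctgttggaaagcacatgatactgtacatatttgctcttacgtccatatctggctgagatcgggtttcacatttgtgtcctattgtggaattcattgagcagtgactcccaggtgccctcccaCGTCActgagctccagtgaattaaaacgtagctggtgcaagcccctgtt
Maff: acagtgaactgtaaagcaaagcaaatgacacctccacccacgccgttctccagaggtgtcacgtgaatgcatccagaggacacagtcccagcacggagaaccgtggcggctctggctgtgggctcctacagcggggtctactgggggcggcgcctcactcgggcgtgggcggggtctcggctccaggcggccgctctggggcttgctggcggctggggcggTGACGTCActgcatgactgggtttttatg

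The Nr4a3 window holds 4 such matches, of which 3 read along the gene, and they begin 231, 213, 205 and 147 bases before the start. Those of Atf3 and Ppargc1a hold 1 each, 7 and 49 bases before the start and on the opposite strand. Maff has 3 windows, and the first of them that holds TGACG is shown. That window holds the full palindrome TGACGTCA, in which 2 matches to TGACG overlap, at 29 bases before the start. TGACG was present in 14 of the 33 windows of called genes (42.4%) and in 17.8% of all 32851 windows of that length, and TGACGTCA in 2 of 33 (6.06%) and in 1.55%. These motifs were chosen with the results known, base composition was not taken into account, and a match is a description of letters.

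Of 32 tested heat shock proteins and cochaperones, 4 rose, where 0.257% of all tested genes rose. Hspa1b had 7.66, 13.2, 2.64 and 3.80 FPKM in exercised VV mice against 0.425, 1.06, 0.260 and 0.351 FPKM in sedentary VV mice (log2 fold change 3.36, SE 0.56, adjusted p = 0.013 from limma). Hspa1a had 10.4, 13.9, 5.58 and 6.89 FPKM against 0.988, 2.86, 0.640 and 1.13 FPKM (2.74, SE 0.46, adjusted p = 0.013). Both encode inducible HSP70, and the sedentary mouse 2074-5 was the highest of its group in both. The genes are near-identical copies that can share fragments, so the division between them is uncertain. Neither passed without 2074-2, 2126-4, 2161-5 or 2161-7 (adjusted p from 0.0516 to 0.0899 for Hspa1b and from 0.0569 to 0.0735 for Hspa1a).

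Chaperones of the sarcomere, already high in sedentary mice, rose too. Hspb7, a small heat shock protein that binds filamin C, had 247, 204, 170 and 216 FPKM in exercised VV mice and 116, 112, 117 and 147 FPKM in sedentary VV mice (0.76, SE 0.11, adjusted p = 0.0044 from limma). Bag3, the cochaperone that links HSP70 to autophagy of damaged filamin, had 66.8, 68.4, 64.0 and 61.8 FPKM against 41.9, 54.3, 44.1 and 51.7 FPKM (0.45, SE 0.09, adjusted p = 0.029). Bag3 had the smallest rise of the 27 genes. Its call was lost without 2074-2, 2126-4, 2161-5, 2161-7, 2296-2 or 2296-3 (adjusted p from 0.0501 to 0.155). In that list 0 genes fell and 16 of 32 had values above 0, with a median of 0.00. Among the rest, Hspb1, a small heat shock protein of the Z-disc, had 268, 178, 191 and 150 FPKM in exercised and 60.4, 117, 78.8 and 121 FPKM in sedentary VV mice without passing (1.09, adjusted p = 0.11). Dnajb4, an HSP70 cochaperone, had 0.74 (adjusted p = 0.11).

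The Hspa1a and Hspa1b windows are shown because they differ at few positions. These bases lie before the transcription start, so they do not show how far fragments of the 2 transcripts can be told apart. They are Hspa1a from chr17:34972157-34972406 on the minus strand and Hspa1b from chr17:34959239-34959488 on the minus strand, and capitals mark GAANNTTC, a heat shock element of 2 units (N stands for any base).
Hspa1a: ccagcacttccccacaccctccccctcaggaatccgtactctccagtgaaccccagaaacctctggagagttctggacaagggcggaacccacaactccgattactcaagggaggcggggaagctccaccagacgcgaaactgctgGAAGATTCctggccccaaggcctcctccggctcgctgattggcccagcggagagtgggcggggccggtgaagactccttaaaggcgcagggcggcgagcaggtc
Hspa1b: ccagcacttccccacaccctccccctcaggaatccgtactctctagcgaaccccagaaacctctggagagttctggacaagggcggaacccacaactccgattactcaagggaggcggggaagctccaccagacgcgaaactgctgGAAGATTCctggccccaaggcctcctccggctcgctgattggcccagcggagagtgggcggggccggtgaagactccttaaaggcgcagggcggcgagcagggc

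At 98.8% of their 250 positions the 2 windows are identical, and each holds 1 match at 104 bases before the start. GAANNTTC was present in 4 of the 33 windows of called genes (12.1%), those of Hspa1a, Hspa1b, Csrp3 and Mustn1, and in 6.69% of all windows. The form with 3 units, GAANNTTC followed by NNGAA, was in 0 of 33 and in 0.466% of all windows.

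Of 31 tested stretch sensors and sarcomere repair genes, 4 rose, where 0.257% of all tested genes rose. Xirp1, an actin-binding protein recruited to sarcomere lesions, had 250, 108, 98.7 and 166 FPKM in exercised VV mice against 26.5, 39.2, 23.9 and 42.5 FPKM in sedentary VV mice (log2 fold change 2.17, SE 0.29, adjusted p = 0.0044 from limma). Csrp3, a LIM-domain protein at the Z-disc, had 177, 78.9, 89.9 and 141 FPKM against 43.7, 36.7, 36.2 and 57.7 FPKM (1.43, adjusted p = 0.024). In both genes 2161-5 was highest and 2296-3 next. Flnc, filamin C, had 277, 184, 147 and 174 FPKM against 59.9, 79.3, 86.6 and 113 FPKM (1.20, adjusted p = 0.023). Enah, an actin-elongating protein, had 38.2, 18.1, 18 and 37.2 FPKM against 10.1, 8.36, 6.89 and 8.64 FPKM (1.62, adjusted p = 0.016). Its exercised values fell into 2 pairs. Csrp3 did not pass without 2074-2, 2074-5, 2126-4, 2161-5 or 2296-3 (adjusted p from 0.0807 to 0.134), Flnc without these 5 mice or 2161-7 (0.0534 to 0.085), and Enah without 2126-4, 2161-5 or 2296-3 (0.063 to 0.0904).

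In that list 0 genes fell and 23 had values above 0, with a median of 0.04, and of 15 tested sarcomere isoforms of slow and fast fibres none passed in limma's fit (median -0.02). Ankrd1, a titin-binding protein induced by stretch, had 41.9, 17.5, 9.06 and 35.7 FPKM in exercised and 4.83, 5.47, 5.38 and 6.01 FPKM in sedentary VV mice, a log2 fold change of 2.01 that missed the threshold (adjusted p = 0.055). The groups did not overlap, and the value of 2296-2 was nearest to the sedentary mice. Mustn1, a small nuclear protein of the musculoskeletal system, rose, with 98.8, 53.4, 49.7 and 63.6 FPKM against 24.5, 25.3, 27.5 and 30.8 FPKM (1.24, SE 0.20, adjusted p = 0.0094). Arhgap26, the only call among 26 tested actin, SRF and YAP targets (median 0.03), had 3.87, 3.92, 2.57 and 2.83 FPKM against 0.991, 1.22, 0.937 and 1.5 FPKM (1.43, SE 0.19, adjusted p = 0.0021). Rbm20, a splicing factor of titin, had 23.7, 27.2, 22.6 and 24.4 FPKM in exercised and 14.7, 16.8, 14.9 and 14.1 FPKM in sedentary VV mice (0.69, SE 0.09, adjusted p = 0.0020). Its spread within each group was small beside the gap between them. Alpk2, an atypical kinase of muscle, had 35.3, 29.9, 28.5 and 32.2 FPKM against 21.9, 23.3, 21.2 and 23.2 FPKM (0.48, adjusted p = 0.0089).

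Srxn1, sulfiredoxin, which reduces hyperoxidized peroxiredoxins and is a classical NRF2 target, was the only call among 29 tested NRF2 targets and antioxidants (0 fell, 11 of 29 above 0, median -0.01). It had 65.8, 37.6, 26.3 and 46.1 FPKM in exercised VV mice and 14.5, 20.5, 10.8 and 12.3 FPKM in sedentary VV mice (log2 fold change 1.56, SE 0.24, adjusted p = 0.0074 from limma). Hmox1, heme oxygenase, had 14.1, 11.9, 6.69 and 7.02 FPKM against 3.98, 5.43, 6.19 and 3.10 FPKM without passing (1.05, adjusted p = 0.22). The metallothionein genes Mt1 and Mt2 had log2 fold changes of 1.24 and 1.98 (adjusted p = 0.26 and 0.25), with the sedentary mouse 2296-5 inside the exercised range of both. The window of Srxn1 (chr2:152105274-152105523 on the plus strand) is shown because it holds 2 AP-1 motifs, TGANTCA, marked by capitals.
Srxn1: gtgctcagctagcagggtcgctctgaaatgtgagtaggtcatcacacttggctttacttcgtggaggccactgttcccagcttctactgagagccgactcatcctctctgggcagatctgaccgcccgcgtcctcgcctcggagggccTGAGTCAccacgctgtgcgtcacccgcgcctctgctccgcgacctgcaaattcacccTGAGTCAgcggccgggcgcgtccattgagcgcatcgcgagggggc

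They begin 102 and 45 bases before the start. TGANTCA was present in 2 of the 33 windows of called genes (6.06%, Srxn1 and Bag3) and in 6.75% of all windows, and the antioxidant response element core TGACNNNGC in 3 of 33 (9.09%, Maff, Mafk and Nr4a3) and in 10.2%. Both shares were near those of all windows. TGACNNNGC was the only form of that element searched, so a variant of it in the Srxn1 window would not be counted.

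Genes of signalling, transport and turnover made up the rest of the rise. Tnfrsf12a, the receptor of the cytokine TWEAK and the only call among 20 tested cytokine, chemokine and receptor genes (median -0.06, and 0.09 without mouse 2161-7), had 53.3, 40.2, 48.0 and 57.9 FPKM in exercised VV mice and 11.2, 17.6, 8.26 and 27.9 FPKM in sedentary VV mice (log2 fold change 1.75, SE 0.28, adjusted p = 0.0092 from limma). Here the sedentary mouse 2296-5 was the highest of its group. Slc22a4, a carrier of the amino acid derivative ergothioneine, had 4.23, 3.21, 3.87 and 4.08 FPKM against 1.68, 1.37, 1.48 and 2.28 FPKM (1.15, SE 0.17, adjusted p = 0.0044). It was the only call among 12 tested genes of the amino acid transporter list (median -0.03), so no listed carrier of amino acids themselves passed. Slc38a2, the amino acid carrier SNAT2, had 69.2, 79.6, 41.8 and 65.6 FPKM against 31.1, 40.1, 19.3 and 31.4 FPKM, did not overlap between groups and did not pass (1.08, adjusted p = 0.11). Ifrd1, a transcriptional coregulator of muscle, had 63.8, 53.1, 40.2 and 72.0 FPKM against 27.5 to 31.1 FPKM (0.95, SE 0.16, adjusted p = 0.0094). Midn, which carries proteins to the proteasome, rose by 0.93 (adjusted p = 0.0060) and Gda, guanine deaminase, by 0.77 (adjusted p = 0.0061).

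Fam134b (current symbol Retreg1), a receptor for autophagy of the endoplasmic reticulum, had 147, 292, 127 and 142 FPKM in exercised VV mice and 71.0, 58.9, 61.2 and 73.0 FPKM in sedentary VV mice (1.34, SE 0.25, adjusted p = 0.033 from limma). Gabarapl1, an ATG8 protein of the autophagosome, had 69.1, 77.2, 54.1 and 64.6 FPKM against 46.9, 43.0, 32.5 and 42.2 FPKM (0.69, adjusted p = 0.026), and was the only call among 19 tested ubiquitin ligases and FOXO genes, whose median was 0.24. Fam134b passed without 2127-3, 2161-4, 2161-9, 2246-4, 2296-5 or 2296-2 and not without any of the other 10 mice (adjusted p from 0.0521 to 0.155). Gabarapl1 did not pass without 2074-5, 2126-4, 2161-5, 2161-7 or 2296-3 (0.0609 to 0.133). Trim63, the muscle ubiquitin ligase MuRF1, had 596, 1154, 534 and 606 FPKM in exercised and 228, 247, 164 and 436 FPKM in sedentary mice, and Fbxo32, atrogin-1, had 137, 196, 133 and 154 FPKM against 91.4, 94.0, 75.7 and 106 FPKM. Neither overlapped and neither passed (1.45 with adjusted p = 0.099, and 0.75 with adjusted p = 0.22).

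Tbc1d1 rose in VV muscle and did not pass in MM muscle. It encodes a Rab GTPase-activating protein, phosphorylated by AKT and AMPK, that holds back the movement of the glucose transporter GLUT4 to the cell surface. Exercised VV mice had 18.6, 19.7, 18.4 and 17.8 FPKM and sedentary VV mice 11.8, 10.7, 13.4 and 14.2 FPKM (log2 fold change 0.58, SE 0.11, adjusted p = 0.023 from limma). The exercised VV values were close together and all above the sedentary ones. Exercised MM mice had 14.6, 20.1, 15.6 and 15.1 FPKM and sedentary MM mice 14.2, 16.3, 14.8 and 14.0 FPKM, which overlapped (0.13, SE 0.11, adjusted p = 0.70). The difference of the exercise effects, VV minus MM, was 0.44 (SE 0.15, unadjusted p = 0.0090, adjusted p = 1 from limma), so a difference between genotypes was not established. The VV call was lost without 2074-2, 2074-5, 2161-5 or 2161-7 (adjusted p from 0.0734 to 0.0843).

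Tbc1d1 was the only call among 23 tested genes of glucose uptake and glycolysis, which had 11 values above 0 and a median of -0.03. Its paralog Tbc1d4 had 8.88, 9.28, 6.97 and 8.75 FPKM in exercised VV mice and 14.2, 10.0, 11 and 7.07 FPKM in sedentary VV mice (-0.28, adjusted p = 0.61 from limma). Slc2a4, the gene of GLUT4, had 211 to 223 FPKM in exercised and 215 to 240 FPKM in sedentary VV mice (-0.09, adjusted p = 0.62). Hk2, hexokinase 2, had 158, 382, 126 and 140 FPKM against 89.0, 79.4, 89.1 and 95.0 FPKM without passing (1.04, adjusted p = 0.25). Prkag2, a regulatory subunit of AMPK, had 8.61, 18, 10.2 and 12.6 FPKM against 6.93, 5.98, 5.75 and 6.14 FPKM (0.93, adjusted p = 0.069). In both genes the groups did not overlap and 2161-7 was highest.

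The 2 genes that fell were at low or middle levels. Lrrc38, which modulates BK potassium channels, had 5.91, 7.35, 6.82 and 8.10 FPKM in exercised VV mice and 13.2, 8.88, 12.3 and 10.7 FPKM in sedentary VV mice (-0.66, SE 0.13, adjusted p = 0.036 from limma). LOC100861855, an entry that the annotation used here does not describe, had 1.09, 1.29, 1.24 and 1.75 FPKM against 3.34, 2.57, 2.66 and 2.35 FPKM (-0.98, SE 0.16, adjusted p = 0.0099). In MM muscle it had 1.37 to 2.04 FPKM in exercised and 2.29 to 3.03 FPKM in sedentary mice, which also did not overlap (-0.65, adjusted p = 0.074), and the difference of effects was -0.33 (unadjusted p = 0.17). It did not pass without 2161-5 (adjusted p = 0.0549). Lrrc38 did not pass without 2074-1, 2161-9, 2297-3, 2074-2, 2126-4, 2296-5, 2161-5, 2161-7 or 2296-2 (0.0506 to 0.174), nor after median-ratio scaling (0.0733).

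Beside the 129 genes called in MM muscle (1.23% of the tested genes), 27 of the 29 VV genes passed in MM in the same direction. In 25 of the 29 the VV log2 fold change was the smaller in size, and 2 genes, Mustn1 (difference -0.65, unadjusted p = 0.037) and Tbc1d1, had an unadjusted p below 0.05 for the difference of effects. No gene passed for the difference after adjustment in limma's fit (0 of 10519 genes, 0%). An unadjusted p below 0.05 was found for 195 genes, a share smaller than the 0.05 that chance gives on average. Of these, 35 were higher and 160 lower in VV. Over all tested genes 62.3% of the differences were below 0, with a median of -0.04. The smallest p of all belonged to AI413582, with 1.67, 1.41, 1.14 and 1.18 FPKM in exercised and 1.94, 1.88, 2.12 and 2.91 FPKM in sedentary VV mice and a difference of effects of -1.12 (unadjusted p = 0.00085, adjusted p = 1). Ntn4, the secreted netrin 4, had a log2 fold change of -0.33 in VV and 0.67 in MM, and Sigirr, an inhibitor of IL-1 receptor signalling, had -0.58 and 0.42 (adjusted p = 1 for both differences).

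**Figure D2:**
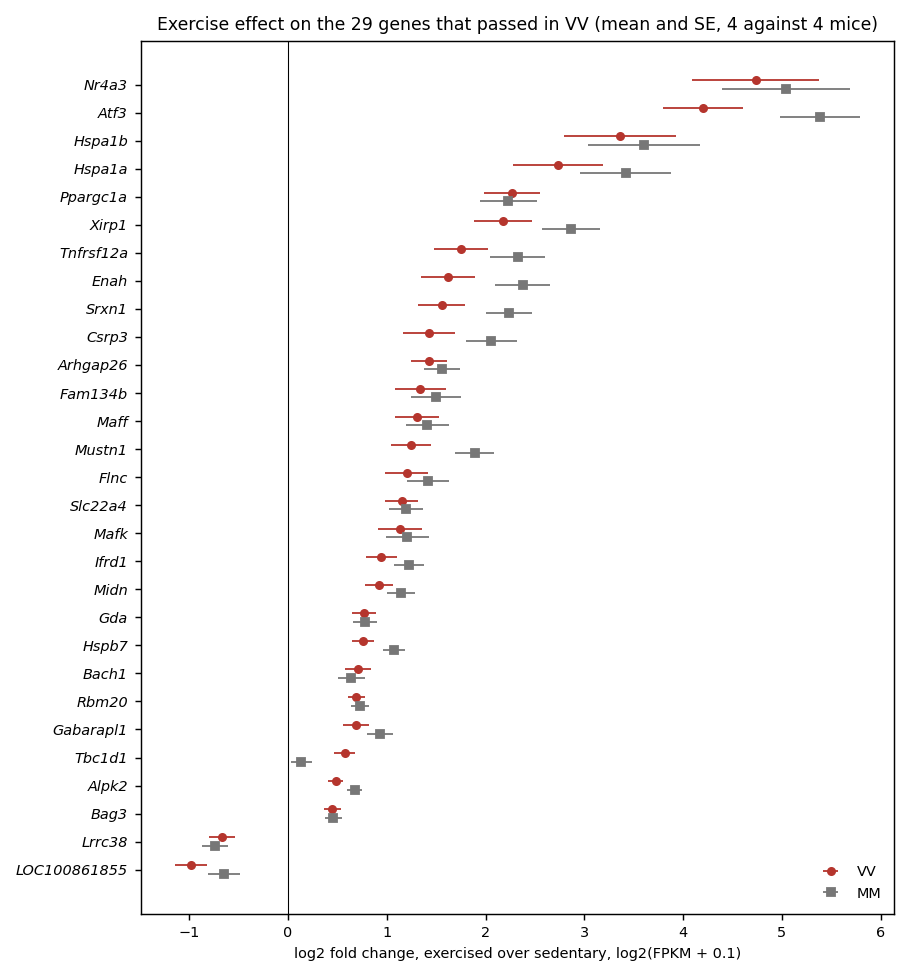
Log2 fold change of the 29 genes called in VV, exercised over sedentary, in VV mice (red circles) and in MM mice (grey squares), with bars of 1 SE from the limma fit of 4 against 4 mice. Tbc1d1 is at 0.58 in VV and 0.13 in MM, and in 25 of the 29 genes the VV value is the smaller in size.

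Among the 4 exercised VV mice the 27 genes that rose were not all highest in the same animal. Mouse 2161-7 was highest for 14 of them, 2161-5 for 10, 2296-3 for 3 (Tnfrsf12a, Ifrd1 and Gda) and 2296-2 for 0, and 2296-2 was lowest for 21. Over all tested genes 2161-7 was highest for 15.0%, 2161-5 for 30.2%, 2296-3 for 44.1% and 2296-2 for 10.7%, and 2296-2 was lowest for 32.5%. The genes highest in 2161-7 were Nr4a3, Hspa1b, Hspa1a, Ppargc1a, Arhgap26, Fam134b, Maff, Mafk, Midn, Bach1, Rbm20, Gabarapl1, Tbc1d1 and Bag3, which include transcription regulators, chaperones and autophagy genes. Those highest in 2161-5 were Atf3, Xirp1, Enah, Srxn1, Csrp3, Mustn1, Flnc, Slc22a4, Hspb7 and Alpk2, which include genes of the sarcomere and the actin cytoskeleton. The kinds of gene were mixed in both mice. The transcription factor gene Atf3 and the chaperone gene Hspb7 were highest in 2161-5. Arhgap26, listed among actin, SRF and YAP targets, and the titin splicing factor gene Rbm20 were highest in 2161-7.

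The exercised MM mice were then grouped by the same genes. Of the 14 genes highest in 2161-7 among VV mice, 9 were highest in 2161-4 and 4 in 2246-4 among exercised MM mice, and 1, Tbc1d1, in 2161-9. Of the 10 genes highest in 2161-5, 7 were highest in 2161-9, 2 in 2161-4 and 1 in 2246-4, and the 3 genes highest in 2296-3 were highest in 2297-3. Genes of a call set share mice and rise in the same libraries, so these counts describe the mice and were not tested. Shares over all tested genes were not taken for the exercised MM mice, so the MM counts have no baseline. Levels of slow-fibre genes also differed between VV mice. Tnnc1, slow troponin C, had 118, 115, 50.3 and 110 FPKM in the exercised mice 2161-5, 2161-7, 2296-2 and 2296-3 and 147, 73.4, 119 and 129 FPKM in the sedentary mice, and Tnni1, slow troponin I, was likewise lowest in 2296-2 (25.6 FPKM) and 2074-5 (31.0 FPKM). The mouse 2296-2 was thus lowest both for slow troponins and for most called genes, and the part of fibre content in the calls was not tested.

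**Figure D3:**
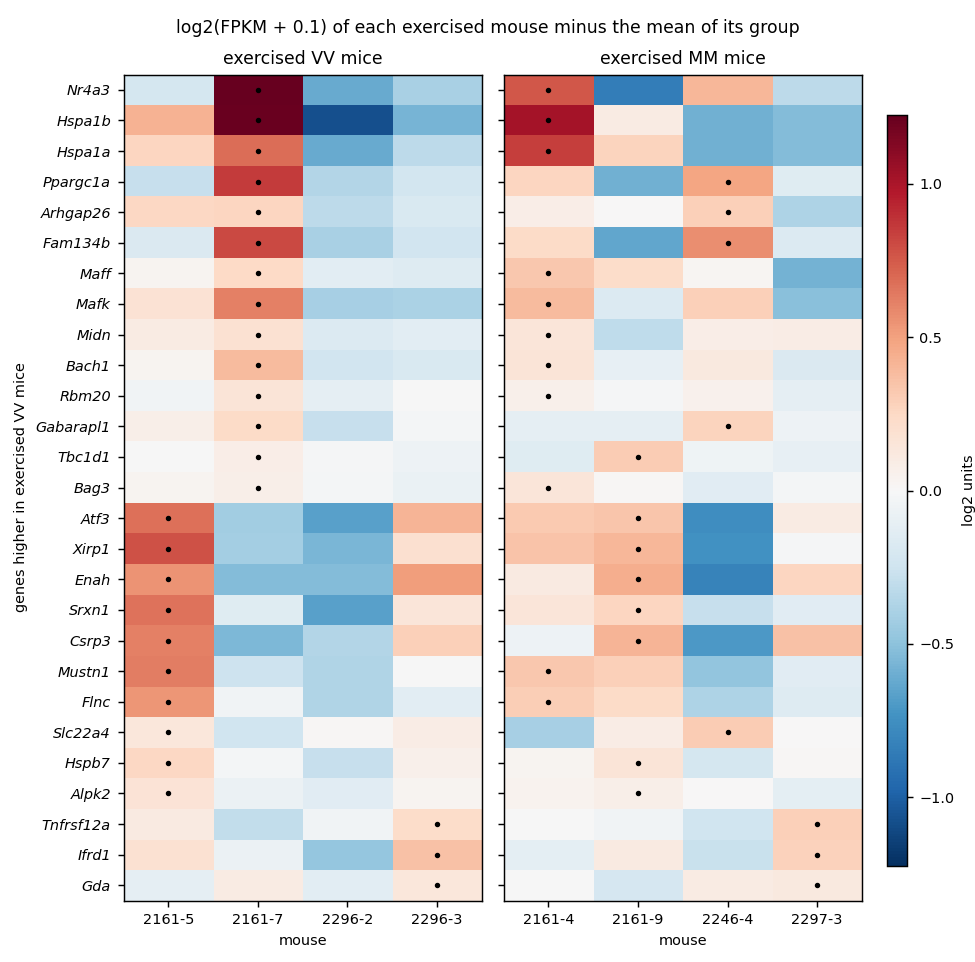
Each cell is the log2(FPKM + 0.1) value of 1 exercised mouse minus the mean of its group of 4, for the 27 genes that rose in VV (rows) in exercised VV mice (left) and exercised MM mice (right), with a dot at the highest mouse of each row. Rows are ordered by the highest VV mouse: 14 rows for 2161-7, 10 for 2161-5 and 3 for 2296-3, and 2296-2 has none.

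Outside the called genes, the highest log2 fold changes among genes whose VV groups did not overlap were those of Ankrd1, Rrad, Trim63, Impact, Tmem140, Gm11974, Spsb1, Csrnp1, Angpt2 and Agt, between 1.16 and 2.01. Rrad, a GTPase that restrains calcium channels, had 4.87, 3.72, 1.54 and 4.33 FPKM in exercised and 0.897, 1.11, 0.487 and 0.988 FPKM in sedentary VV mice (1.87, adjusted p = 0.084 from limma). Impact, a regulator of the eIF2 kinase GCN2, had 13.8, 33.6, 14.2 and 15.1 FPKM against 6.58, 9.11, 5.85 and 5.44 FPKM (1.41, adjusted p = 0.11). As with Trim63, 2161-7 was alone at the top. Angpt2, a ligand of the endothelial receptor TIE2, had 2.87, 2.05, 2.03 and 3.16 FPKM against 1.06, 0.977, 1.16 and 0.891 FPKM (1.21, adjusted p = 0.069), and Hbegf, a ligand of the EGF receptor, had 24.6, 24.7, 10.6 and 19.1 FPKM against 7.19, 4.24, 5.00 and 10.8 FPKM (1.54, adjusted p = 0.063). For Hbegf 2296-2 lay just inside the sedentary range.

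At the low end the corresponding genes had between -0.86 and -2.15 and none passed in limma's fit. They were Sh3bp1, Ccdc88a, Chrna2, the joined entry Gm7120,LOC101055764, LOC101056214, 1700007L15Rik, Zdhhc24, A730011C13Rik, 1600027N09Rik and Usp18. Several of them lay near the level required for testing. Sh3bp1 had 0.666, 0.255, 0.520 and 0.395 FPKM in exercised VV mice and 9.51, 1.80, 2.05 and 0.726 FPKM in sedentary VV mice (-2.15, adjusted p = 0.25). Ccdc88a, the actin-binding protein girdin, had 0.248 to 0.336 FPKM against 1.37, 4.51, 0.364 and 2.36 FPKM (-2.08, adjusted p = 0.36). The small nuclear RNA entry Rnu6 was listed at 0 in the exercised mice 2161-5, 2161-7 and 2296-3 and at 316 FPKM in 2296-2, against 216, 198, 329 and 512 FPKM in sedentary mice, and it did not pass (adjusted p = 0.37). As background, such small RNAs lack the poly(A) tail on which the libraries were selected.

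Of 31 pathway lists, 12 held a called gene and 19 held none, and 20 of the 29 called genes were on some list. The lists hold 617 of the 10519 tested genes. They were written with earlier results of these data known, so the count of 20 is no support for these pathways. All list calls were higher in exercised VV mice. Interferon response genes had the lowest median of the 31 pathway lists, -0.32 against -0.08 over all tested genes, with 17 of 19 values below 0 and none passed in limma's fit. Usp18, which removes the ubiquitin-like modifier ISG15, had 1.02, 0.414, 0.974 and 0.543 FPKM in exercised and 2.01, 1.32, 1.05 and 1.16 FPKM in sedentary VV mice (-0.86, adjusted p = 0.24). Isg15 itself had 1.23, 0.500, 1.22 and 1.26 FPKM against 1.43, 1.62, 1.80 and 1.46 FPKM (-0.61, adjusted p = 0.66). After median-ratio scaling the list's median was -0.24. In MM it was -0.00, and no interferon gene passed for the difference of effects.

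**Figure D4:**
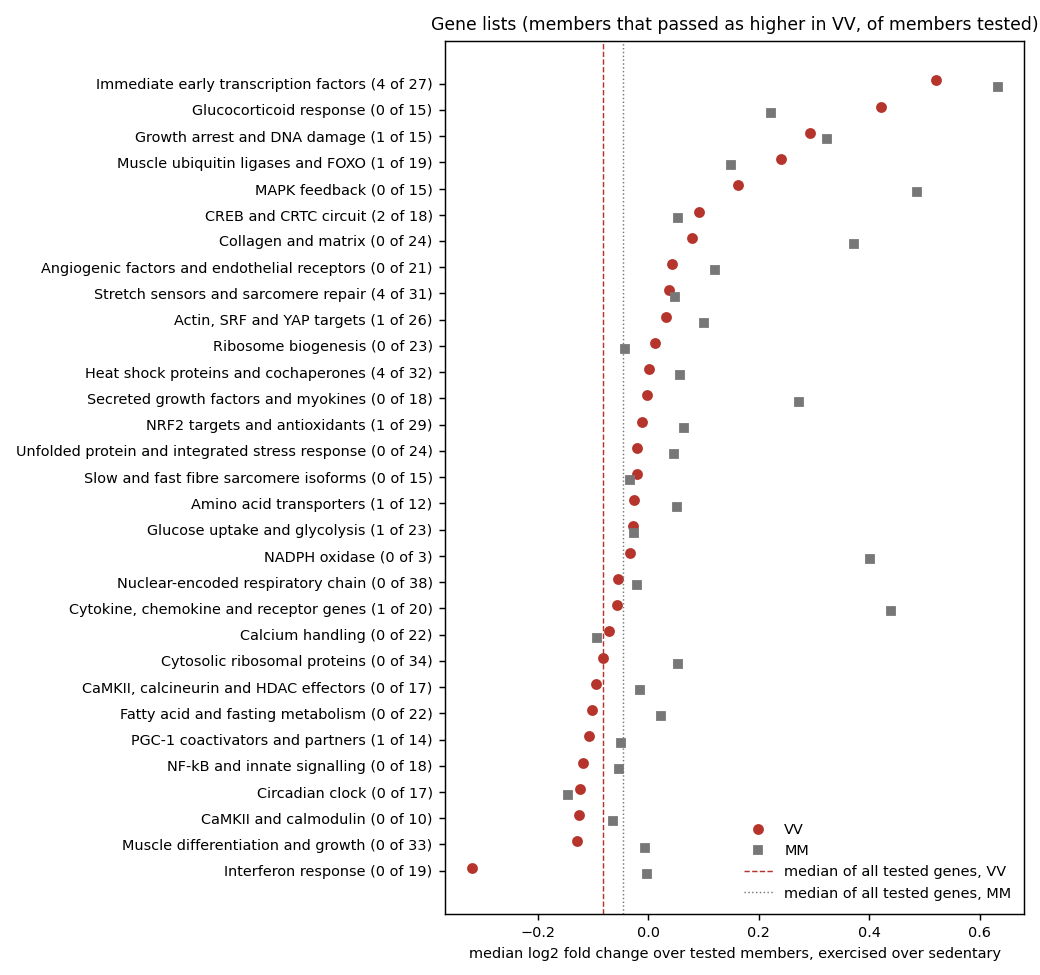
Median log2 fold change over the tested members of each of 31 pathway lists, exercised over sedentary, in VV (red circles) and MM (grey squares), with dashed and dotted lines at the median of all tested genes in VV (-0.08) and MM (-0.05) and, in parentheses, how many members passed as higher in VV of how many tested. Immediate early transcription factors are at the top in VV at 0.52 (0.30 without mouse 2161-7) and interferon response genes at the bottom at -0.32.

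Several lists had values above the background without more than 1 call. Glucocorticoid response genes had a median of 0.42 with 12 of 15 above 0 and none passed, and without mouse 2161-7 that median was 0.23. Growth arrest and DNA damage genes had 0.29 with 1 call (Ifrd1), and MAPK feedback genes 0.16 with none. For fatty acid and fasting metabolism the median was -0.10 with 6 of 22 above 0 and none passed. Pdk4, which turns muscle from glucose to fat, had 754, 992, 993 and 1033 FPKM in exercised and 650, 797, 418 and 772 FPKM in sedentary VV mice (0.55, adjusted p = 0.40 from limma). Muscle differentiation and growth genes had -0.13 with 13 of 33 above 0 and none passed, and Acvr2b, the myostatin receptor, had 2.14, 1.87, 2.60 and 2.62 FPKM against 3.77, 3.47, 4.04 and 3.35 FPKM without overlap (-0.65, adjusted p = 0.069). Cytosolic ribosomal proteins had a median of -0.08 in VV with 4 of 34 above 0. Over all tested genes the VV median was -0.08 as well, and 73.6% of values were below 0. In MM the list had a median of 0.05 with 31 of 34 above 0, and 0 of its genes passed for the difference of effects.

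The mutated kinase and its relatives did not pass. Camk2g had 56.9, 56.7, 50.5 and 54.1 FPKM in exercised and 61.6, 57.3, 63.7 and 59.9 FPKM in sedentary VV mice (-0.15, SE 0.06, unadjusted p = 0.029, adjusted p = 0.44 from limma). The groups did not overlap, by a margin of less than 1 FPKM. Camk2a, Camk2b and Camk2d, the other isoform genes, had log2 fold changes of -0.14, 0.04 and -0.11 (adjusted p = 0.47, 0.89 and 0.72). Of 10 tested CaMKII and calmodulin genes none passed and the median was -0.13. Among 17 tested effectors of CaMKII, calcineurin and class II histone deacetylases none passed either (median -0.09), and Nfatc1, a calcineurin-dependent factor, had 14.0, 26.3, 9.87 and 10.9 FPKM against 7.77, 9.78, 9.54 and 10.5 FPKM (0.59, adjusted p = 0.47).

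None of the 14 marker lists held a call. Without overlap between the VV groups, 2 of 14 tested endothelial markers were lower in exercised mice (3.52% of all tested genes) and 1 of 5 tested satellite cell markers was higher (1.4%). Macrophage and monocyte markers summed to 48.2 to 150 FPKM in exercised and 39.99 to 128 FPKM in sedentary VV mice, with a median log2 fold change of 0.01 over 11 tested genes in VV and 0.80 in MM. Without mouse 2161-7 the VV median was 0.25. Mrc1, a receptor of resident macrophages, had 4.31, 0.989, 1.65 and 2.17 FPKM in exercised and 2.21, 2.88, 3.94 and 1.22 FPKM in sedentary VV mice (-0.24, adjusted p = 0.87 from limma). Fibro-adipogenic and fibroblast markers summed to 723 to 1232 FPKM against 599 to 1185 FPKM (median 0.02, and 0.11 without 2161-7), and endothelial markers to 135 to 149 FPKM against 139 to 154 FPKM (median -0.13, and -0.05 without 2161-7). Adipocyte markers had the lowest median of the marker lists, -0.31 with 1 of 11 above 0, which was -0.23 after median-ratio scaling and -0.16 without 2161-7. They summed to 1321 to 1723 FPKM in exercised and 1228 to 1765 FPKM in sedentary VV mice. Smooth muscle and pericyte markers had a median of -0.09 with 1 of 10 above 0, and summed to 192 to 238 FPKM against 203 to 262 FPKM. The part of cell content in the results was not tested. Neutrophil markers summed to 1.67 to 4.22 FPKM against 0.734 to 4.71 FPKM with 1 gene tested, and none of the T, NK and B cell markers reached the level for testing. The difference of exercise effects between genotypes did not pass for any macrophage marker.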

How the data were processed

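Polyadenylated RNA of quadriceps was read as stranded paired ends in 16 mice. The deposited values are FPKM for each gene, made by the authors. Tools in the submitters' processing notes are Cuffdiff 2.2.1, StringTie, TopHat, SAMtools and FastQC, with the build mm10 and no stated order. As FPKM are relative, a few very high genes lower all others. Entries averaging 1 FPKM or more were fitted as log2(FPKM + 0.1) in R 4.3.3 with limma 3.58.1, using 4 group means over the 16 mice and eBayes with trend and robust settings. Tests are two-sided with Benjamini-Hochberg adjustment at 0.05, and the pipeline was tested on simulated data. Of the entries, 7 with a missing value were not tested, and 271 tested entries join several genes. The files hold FPKM alone, and error was judged from the variation among mice.

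Members, gene lists, motifs and named genes were chosen with earlier results of these data known. Named genes are those that passed in VV, the 10 highest and 10 lowest others without overlap, the 10 smallest p for the difference of effects, Camk2 genes, and up to 5 members of a pathway list or 3 of a marker list with the largest change. Tbc1d4, Slc2a4, Prkag2, Hbegf, Jun, Rnu6 and Snord15b were chosen after their values were seen. Alternatives were the pseudocount, the filter, the scaling, the eBayes settings, sample weights, VV mice alone, the title prefix as a term and leaving out each mouse. Promoter windows and positions are RefSeq's for GRCm38.p6. Plots used matplotlib 3.10.9 under Python 3.11.15.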

Additional observations from a re-analysis of the deposited data

Results flagged for a closer look

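Within groups of 4 mice, the highest or lowest value was examined for a gap to its neighbour, relative to the group's range, above Dixon's 95% critical value, in 208 groups over 104 genes. It was exceeded 18 times, and 9 of the 18 were the exercised VV mouse 2161-7. Chance gives about 1 in 20 groups for independent, normally distributed values. These genes were chosen with the data known and share the same mice, so that rate is a rough guide only.

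Mouse 2161-7 was above the other exercised VV mice for Nr4a3 (87.3 FPKM, others 24.4 to 32.2), Ppargc1a (91, others 39.3 to 43.1), Fam134b (292, others 127 to 147), Trim63 (1154, others 534 to 606), Impact (33.6, others 13.8 to 15.1), Gm11974 (5.09, others 1.13 to 1.42), Ppargc1b (3.28, others 1.21 to 1.41) and Hk2 (382, others 126 to 158). It was below them for Isg15 (0.500 FPKM, others 1.22 to 1.26). This mouse also had the shallowest library of the series, and the part of depth in these values was not tested.

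Other exercised VV mice stood apart for Pdk4 (2161-5 at 754 FPKM, others 992 to 1033), Gbp3 (2296-3 at 2.14, others 1.26 to 1.40), Tnnc1 (2296-2 at 50.3, others 110 to 118) and Rnu6 (2296-2 at 316, the others listed at 0). Sedentary VV mice stood apart for Hspb7 (2296-5 at 147 FPKM, others 112 to 117), Sh3bp1 (2074-2 at 9.51, others 0.726 to 2.05), 1600027N09Rik (2296-5 at 1.55, others 1.78 to 1.82), Gbp3 (2126-4 at 3.34, others 1.98 to 2.03) and Tnni1 (2074-5 at 31.0, others 54.1 to 55.5).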

How the results depend on the processing

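The 29 calls in VV became 53 after median-ratio scaling, 48 after quantile normalization, 5 with the VV mice alone and 1 with the title prefix as a term, which was Snord15b, and they lay between 17 and 43 when each mouse was left out. Array weights gave 31, a pseudocount of 1 gave 29, at least 5 FPKM 26, plain eBayes 26 and no filter 24. The 129 calls in MM became 235 with array weights and 0 with the prefix term, and lay between 69 and 135 when each mouse was left out. The count for the difference of effects was 0, and 0 to 1 when each mouse was left out. The 517 genes without overlap became 317 at a mean of at least 5 FPKM, where 6366 genes were tested. MM mice do not enter this count, so it stayed at 517 without any single one of them. Without 1 VV mouse it lay between 648 and 1433. Fewer mice separate more easily, so that rise is no measure of stability. Of 5441 values of 221 named genes under the alternatives, 136 lost and 44 gained the threshold, and no called gene changed sign. Signs changed in 105 values that passed under neither setting, 55 of them with the prefix term. Except where a setting tests fewer genes or mice, the cause was not tested. Exercised and sedentary mice were different animals and the labels name no pairs between them, so no paired analysis was made. FPKM carry no counts, so the depth behind low values is known only in relative terms.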
